A study of Mus musculus with 7 samples.

Results

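This account covers 39 collagen and extracellular matrix genes, fixed by name, measured by RNA-seq in sorted tumour CD8 T cells. A gene was kept when it reached 1 TPM (an abundance scaled to transcript length and library) in at least 3 of 7 libraries, which 38 of the 39 did, out of 13798 genes of the table that met the same condition. The samples were 4 libraries from ENT1KO mice (Slc29a1-/-, replicates 11, 12, 14 and 15) and 3 from C57Bl/6 WT mice (replicates 1, 2 and 3). All mice carried subcutaneous tumours of MCA205, a transplantable mouse fibrosarcoma line, which were taken after 14 days and sorted for live CD45-positive CD8-positive cells, at least 30000 per condition. Slc29a1 encodes ENT1, an equilibrative transporter of adenosine and other nucleosides. The gene was missing in the host as a whole, not in T cells alone, and no label states whether libraries came from different animals. P-values therefore reflect only how these samples vary, which may be technical. No label gives the age of the mice.

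The extracellular matrix is the protein scaffold around cells. Fibroblasts and other mesenchymal cells, and fibrosarcoma cells, which share that character, secrete most of its collagens, while T cells are known for crossing matrix rather than for making fibrillar collagen. Collagen chains are hydroxylated and folded in the endoplasmic reticulum with the help of chaperones, trimmed outside the cell by proteinases and cross-linked by lysyl oxidases. Matricellular proteins and small proteoglycans then bind the fibres and tune their assembly and their contact with cells.

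Slc29a1 itself averaged 14.8 ± 2.0 TPM in ENT1KO libraries and 53.2 ± 4.94 TPM in WT libraries (SD, n = 4 and n = 3), lower in all 4 ENT1KO libraries but not absent, and the part of the gene that was deleted is not stated in the labels. The sorted label was checked against marker genes before the matrix genes were read. All 12 genes of a CD8 T cell list (Cd3, Cd8 and T cell receptor constant genes among them) were present in each library, with a summed level between 8636 and 10690 TPM in ENT1KO libraries and between 2713 and 6517 TPM in WT libraries. Markers of other cell types were present too. In a fibroblast and mesenchymal list of 15 genes, 12 of 13 tested genes were called lower in ENT1KO, against 23.1% of all genes tested, and 1, S100a4, which was abundant in every library, did not pass (1072 to 1703 TPM in ENT1KO and 1033 to 1164 TPM in WT). Without S100a4 the list summed to between 1.27 and 246 TPM in ENT1KO and between 1097 and 2187 TPM in WT. Tcf21 was listed at 0 in all 7 libraries, and Prrx1, Prrx2, Twist1 and Tm4sf1 were listed at 0 in ENT1KO replicate 15. A macrophage and monocyte list, of which all 10 genes were called lower in ENT1KO, summed to between 85.8 and 853 TPM in ENT1KO and between 2429 and 3735 TPM in WT. The endothelial list summed to between 4.55 and 12.2 TPM in ENT1KO and between 28.9 and 46.3 TPM in WT, with 6 of 6 tested genes called lower. Of the genes called lower, 8 of the fibroblast list and 4 of the endothelial list reached 1 TPM in fewer than 3 ENT1KO libraries. Without WT replicate 2 the calls of Crabp1, Tm4sf1, C1qa, C1qb and C1qc were lost (limma adjusted p = 0.0588 to 0.082), and with quantile normalization those of Kdr and Vwf (0.0909 and 0.0562). The part that cell types other than T cells have in the matrix levels below was not tested, and in bulk RNA fewer cells of a type cannot be told apart from less RNA per cell.

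Matrix RNA was lower in every ENT1KO library than in every WT library. The 39 genes together summed to 142.5, 288 and 1133 TPM in ENT1KO replicates 11, 12 and 14 and to 34.0 TPM in replicate 15, against 7724, 9897 and 5219 TPM in WT replicates 1, 2 and 3. They made up between 0.0034% and 0.113% of all TPM in ENT1KO and between 0.522% and 0.99% in WT. The sum averaged 399 ± 500.0 TPM in ENT1KO (SD, n = 4) and 7613 ± 2341 TPM in WT (SD, n = 3), so the WT mean was 19.1 times the ENT1KO mean. Replicate 14 supplied most of the ENT1KO sum, and without it the ENT1KO mean was 155 TPM and the ratio 49.1. The 4 ENT1KO libraries were therefore farther apart, relative to their mean, than the 3 WT libraries.

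**Figure D1:**
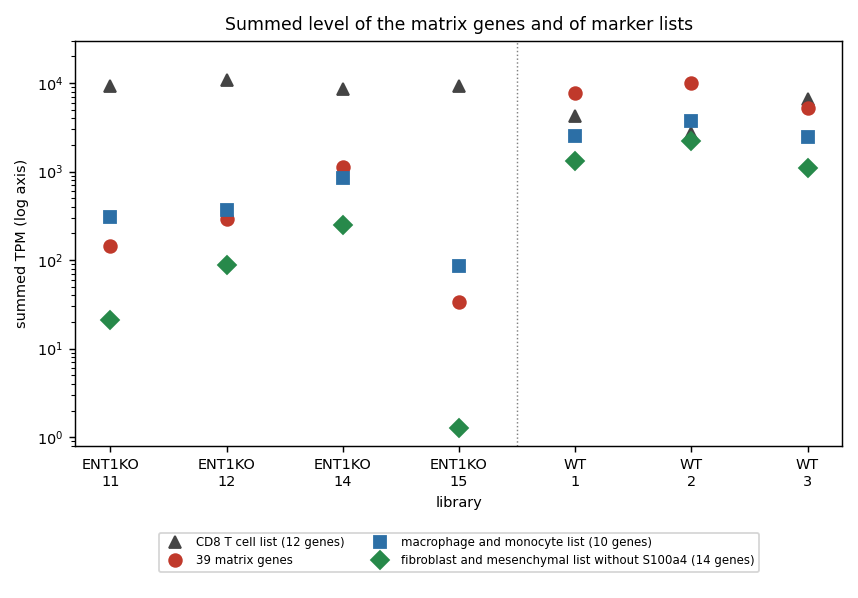
Summed TPM (log axis) of the 39 matrix genes and of 3 marker lists in the 4 ENT1KO libraries, left of the dotted line, and the 3 WT libraries, right of it. The matrix sum runs from 34.0 to 1133 TPM in ENT1KO and from 5219 to 9897 TPM in WT. The CD8 T cell sum runs from 8636 to 10690 TPM in ENT1KO and from 2713 to 6517 TPM in WT.

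All 38 tested genes were called lower in ENT1KO by limma-trend on log2(TPM + 1), with Benjamini-Hochberg adjusted p, over all 13798 genes, between 0.00121 and 0.0159. Of all genes tested, 23.1% were called lower, 50.6% were called in either direction, and 54.4% of those calls were higher in ENT1KO. On normalized counts 42.9% of the calls were higher and the median over all genes was 0. The log2 differences, ENT1KO minus WT, ran from -6.03 to -1.55 with a median of -4.59, against a median of 0.15 over all genes, and 26 lay below -4, where 0.536% of all genes tested lay. For 20 of the 38, fewer than 3 ENT1KO libraries reached 1 TPM, so these entered the test only with the help of WT values. The filter thus favours genes that are lower in ENT1KO, and the count is a description. Each of the 39 genes was below the lowest WT value in all 4 ENT1KO libraries, where 24.9% of all genes tested were. For each of them the exact permutation p (two-sided) was 0.0286, the lowest value possible with 4 and 3 samples. According to the authors' deposited table all 39 genes had a negative log2 fold change and an adjusted p under 0.05, against 25.8% of its tested genes called lower. The median log2 difference of the 38 genes was -5.26 without ENT1KO replicate 14 and -4.03 without ENT1KO replicate 15.

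**Figure D2:**
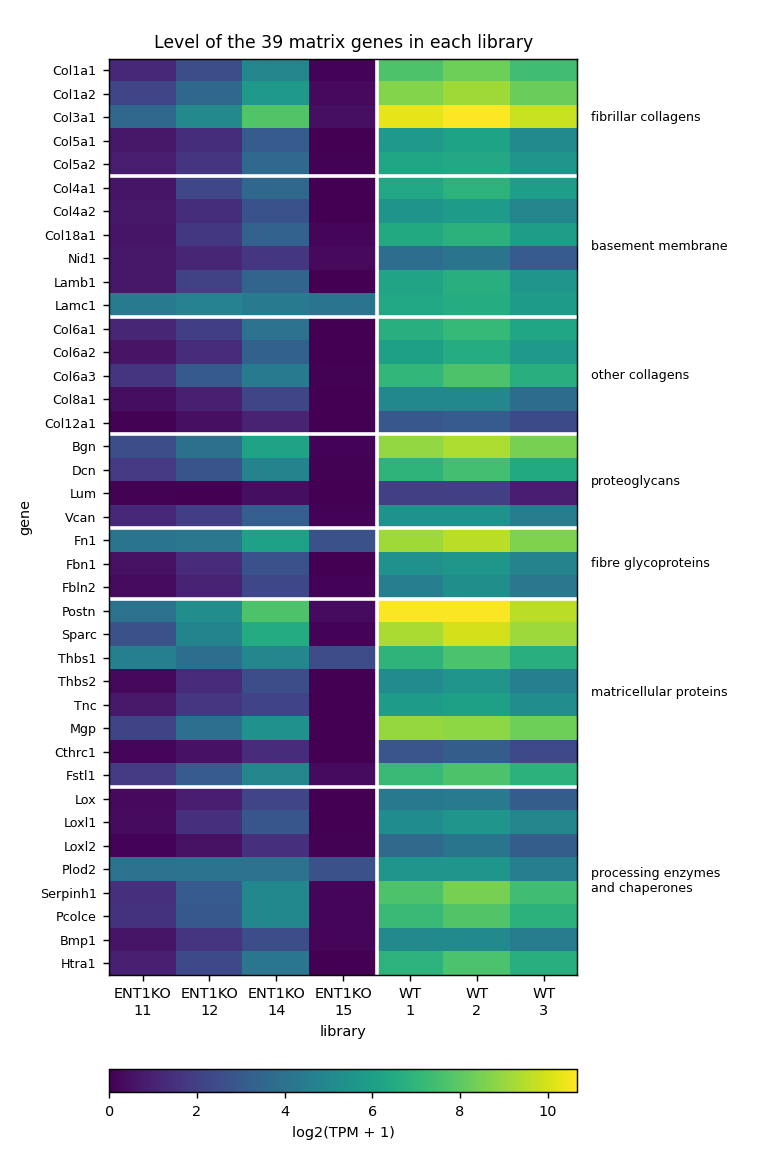
Level of the 39 genes, as log2(TPM + 1), in 4 ENT1KO libraries (left) and 3 WT libraries (right), grouped by role. ENT1KO replicate 15 is at or near 0 for nearly all rows, with Lamc1, Plod2, Fn1 and Thbs1 standing out at 16.4, 5.34, 5.29 and 4.66 TPM.

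The threshold of 1 TPM in 3 libraries left out Lum alone. Lum, which encodes the small proteoglycan lumican, was at 0.03, 0, 0.33 and 0 TPM in ENT1KO replicates 11, 12, 14 and 15, against 3.07, 3.01 and 0.82 TPM in WT replicates 1, 2 and 3. The 5 genes just inside, at 1 TPM or more in 4 libraries, were Col8a1, Col12a1, Cthrc1, Lox and Loxl2. Of these Col12a1 had the lowest mean over all 7 libraries (2.84 TPM) and was at 1.12 TPM in ENT1KO replicate 14. In WT replicate 3 Cthrc1 was lower, at 4.06 TPM against 4.30 TPM for Col12a1.

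The fibrillar collagens form the banded fibres of connective tissue, and all 5 chains measured were lower in ENT1KO. Col3a1 (chromosome 1, 45350698 to 45388866, GRCm39), the chain of collagen III, measured 11.2, 32.0, 221 and 0.34 TPM in ENT1KO replicates 11, 12, 14 and 15, against 1253, 1633 and 867 TPM in WT replicates 1, 2 and 3. Its highest ENT1KO library, replicate 14, lay below its lowest WT library, replicate 3. The log2 difference was -6.03 with a standard error of 1.47 (limma adjusted p = 0.0122), and without WT replicate 2 it was -5.81 (limma adjusted p = 0.0686). Col1a2, the second chain of collagen I, was at 3.63, 10.9, 54.4 and 0.21 TPM in ENT1KO, in the same order, against 411, 575 and 307 TPM in WT (log2 difference -5.75, limma adjusted p = 0.00521). Col1a1, the main chain of collagen I, was at 1.32, 4.67, 28.4 and 0.06 TPM in ENT1KO against 207, 317 and 167 TPM in WT (log2 difference -5.63, limma adjusted p = 0.00374). Both collagen I chains were thus highest in replicate 14 and lowest in replicate 15 among ENT1KO libraries, and highest in replicate 2 and lowest in replicate 3 among WT libraries. Col5a1 and Col5a2, chains of the collagen V that nucleates these fibres, averaged 2.46 ± 3.47 and 3.64 ± 5.39 TPM in ENT1KO and 52.8 ± 19.2 and 70.3 ± 20.8 TPM in WT (SD, n = 4 and n = 3). Col5a2 lies 24.6 kb from Col3a1 on chromosome 1.

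The sequences upstream of the RefSeq starts were read, as a description, for the most abundant of the genes with a single promoter window. Postn, the gene with the highest mean TPM over all libraries, has more than a single window and was left out by this rule. Why genes of this set moved together across libraries was not tested. The table of RefSeq promoters (build GRCm38.p6) held 24 of the 39 genes, in 28 windows. Shown, 5′ to 3′ on the gene's strand, are the 250 bases before the start of Col3a1 (chr1:45311288-45311537, plus strand), Col1a2 (chr6:4505368-4505617, plus strand) and Bgn (chrX:73483351-73483600, plus strand), with capitals for 3 of the 5 motifs searched on both strands. Capitals mark TATAAA, the TATA box core, then CCAAT, read by NF-Y, and GGGCGG, the core of a GC box. The motifs without capitals were TGANTCA, read by AP-1, and GGAATG, read by TEAD factors.
Col3a1: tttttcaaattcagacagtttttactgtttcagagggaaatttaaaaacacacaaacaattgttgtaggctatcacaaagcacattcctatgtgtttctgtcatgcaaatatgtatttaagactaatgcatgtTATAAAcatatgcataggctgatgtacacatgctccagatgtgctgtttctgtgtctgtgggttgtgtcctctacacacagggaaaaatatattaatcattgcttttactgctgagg
Col1a2: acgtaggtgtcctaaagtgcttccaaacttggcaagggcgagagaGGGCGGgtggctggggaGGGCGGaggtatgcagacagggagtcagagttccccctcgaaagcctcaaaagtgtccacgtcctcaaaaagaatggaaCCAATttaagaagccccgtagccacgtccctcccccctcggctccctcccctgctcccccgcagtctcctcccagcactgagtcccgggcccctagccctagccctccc
Bgn: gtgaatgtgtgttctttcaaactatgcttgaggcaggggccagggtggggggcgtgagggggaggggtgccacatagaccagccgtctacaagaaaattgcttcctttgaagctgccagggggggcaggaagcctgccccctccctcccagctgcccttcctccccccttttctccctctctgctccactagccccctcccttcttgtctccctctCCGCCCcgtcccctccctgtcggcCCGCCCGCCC
The Col3a1 window holds a TATAAA that begins 117 bases before the start, a GGAATG match at 168 bases and no GGGCGG. The Col1a2 window holds a CCAAT that begins 109 bases before the start and GGGCGG at 205 and 188 bases, and the Bgn window holds 3 GGGCGG matches, 2 of them sharing bases. The Sparc window, which was also read and is not shown, holds none of the motifs searched. Across the 28 windows of matrix genes, GGGCGG was found in 67.9%, CCAAT in 32.1% and TATAAA in 17.9%. Among all 32851 windows of the same length these letters were found in 32.7%, 33.8% and 12.4%. TGANTCA was in 3.6% of the windows of matrix genes and 6.7% of all windows, and GGAATG was in 14.3% and 12.6%. A match is a description of the letters and not of binding.

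The basement membrane genes encode the sheet of collagen IV, laminin and nidogen under epithelia, vessels and muscle. All 6 were lower in ENT1KO, and Lamc1 differed in pattern from the others. Col4a1, the first chain of collagen IV, was at 0.52, 3.82, 11.4 and 0.01 TPM in ENT1KO replicates 11, 12, 14 and 15, against 84.1, 119 and 61.8 TPM in WT replicates 1, 2 and 3 (log2 difference -4.80, limma adjusted p = 0.0031). Col4a2, its partner chain, was at 0.63, 1.67, 5.44 and 0 TPM in ENT1KO against 45.5, 56.5 and 28.4 TPM in WT (log2 difference -4.22, limma adjusted p = 0.00172). The Col4a1 and Col4a2 genes lie head to head on chromosome 8 and share 22 bases at their starts in the deposited GRCm39 coordinates (Col4a1 ends at 11362826 and Col4a2 begins at 11362805). The authors mark the deposited TPM table as stranded. No such mark is given for the normalized counts, where reads in those bases might not be told apart. Lamb1, the beta chain of many laminins, was at 0.63, 3.15, 10.1 and 0.01 TPM in ENT1KO against 74.1, 102 and 48.3 TPM in WT. Lamc1, the gamma chain that pairs with it, was at 20.2, 25.7, 20.7 and 16.4 TPM in ENT1KO against 80.2, 96.1 and 57.0 TPM in WT (log2 difference -1.84, SE 0.20, limma adjusted p = 0.00121). The 4 ENT1KO libraries thus lay close together for Lamc1, and the groups did not overlap. Col18a1, whose collagen XVIII carries the endostatin fragment, had a log2 difference of -4.98, and Nid1, the nidogen that links laminin to collagen IV, had -2.73 (limma adjusted p = 0.00193 and 0.00156).

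The other collagens were the beaded-filament collagen VI, the short-chain Col8a1 and the fibre-associated Col12a1. Col6a3, the long chain of collagen VI, was at 2.15, 7.13, 19.9 and 0.04 TPM in ENT1KO replicates 11, 12, 14 and 15, against 133, 207 and 106 TPM in WT replicates 1, 2 and 3 (log2 difference -4.89, limma adjusted p = 0.00436). Col6a1 was at 1.23, 2.93, 15.1 and 0 TPM in ENT1KO against 106, 142 and 75.7 TPM in WT (log2 difference -4.94, limma adjusted p = 0.00307). For both chains all WT values lay above the highest ENT1KO value, that of replicate 14. Col6a2, which lies 85.2 kb from Col6a1 on chromosome 10, averaged 2.76 ± 4.21 TPM in ENT1KO and 72.2 ± 22.7 TPM in WT. Col8a1 and Col12a1 had log2 differences of -3.68 and -2.41 and averaged 24.6 ± 10.3 and 6.12 ± 1.70 TPM in WT.

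Proteoglycans and fibre glycoproteins were lower in ENT1KO as well. Bgn (biglycan), a small proteoglycan of collagen fibres, was at 4.91, 14.5, 69.2 and 0.06 TPM in ENT1KO replicates 11, 12, 14 and 15, against 496, 660 and 355 TPM in WT replicates 1, 2 and 3 (log2 difference -5.75, SE 1.22, limma adjusted p = 0.00711). Dcn (decorin), its relative that binds collagen I, was at 2.45, 5.86, 26.1 and 0.04 TPM in ENT1KO against 123, 177 and 88.3 TPM in WT (log2 difference -4.62, limma adjusted p = 0.00651). Both followed the order of the collagens across libraries. Vcan (versican), a large hyaluronan-binding proteoglycan that myeloid cells also make, averaged 3.09 ± 3.50 TPM in ENT1KO and 35.5 ± 12.2 TPM in WT (log2 difference -3.51). Fn1 (fibronectin), a cell-adhesive glycoprotein, was at 16.1, 18.5, 68.1 and 5.29 TPM in ENT1KO against 571, 768 and 386 TPM in WT (log2 difference -4.83, limma adjusted p = 0.00204). Fbn1 (fibrillin-1), the core of elastic microfibrils, was at 0.41, 1.39, 5.42 and 0.01 TPM in ENT1KO against 41.8, 49.8 and 26.3 TPM in WT, and Fbln2 (fibulin-2) had a log2 difference of -3.75. In ENT1KO replicate 15, Fn1 was therefore detected at a level where Fbn1 was nearly 0.

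Matricellular proteins held the largest share of the matrix RNA in all 3 WT libraries. Postn (periostin), which promotes collagen cross-linking, was at 15.1, 36.7, 208 and 0.23 TPM in ENT1KO replicates 11, 12, 14 and 15, against 1571, 1545 and 768 TPM in WT replicates 1, 2 and 3 (log2 difference -5.95, SE 1.49, limma adjusted p = 0.0132, and 0.0718 without WT replicate 2). Sparc, a collagen-binding glycoprotein, was at 5.21, 27.2, 94.0 and 0.08 TPM in ENT1KO against 640.1, 1001 and 548 TPM in WT (log2 difference -5.93, limma adjusted p = 0.00909, and 0.0563 without WT replicate 2). Mgp, the matrix Gla protein that inhibits calcification, was at 3.58, 14.0, 41.5 and 0 TPM in ENT1KO against 503, 467 and 318 TPM in WT (log2 difference -5.84, limma adjusted p = 0.00482). The WT order of Postn and Mgp, highest in replicate 1, differed from that of most genes, since replicate 2 was the highest WT library for 36 of the 39. Thbs1 (thrombospondin-1), an adhesive glycoprotein that also activates TGF-beta, was at 23.7, 13.6, 29.3 and 4.66 TPM in ENT1KO against 122, 198 and 101 TPM in WT (log2 difference -3.11, limma adjusted p = 0.00381). Its relative Thbs2 averaged 1.61 ± 2.25 TPM in ENT1KO and 34.8 ± 11.8 TPM in WT (log2 difference -4.10). Tnc (tenascin-C) and Fstl1, a follistatin-like glycoprotein, had log2 differences of -4.56 and -4.72, and Cthrc1, a collagen triple helix repeat protein, had -2.24 from a WT mean of 5.96 ± 1.89 TPM.

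Enzymes and chaperones of collagen showed the widest range of differences among the role groups, with Plod2 at the small end. Serpinh1 (HSP47), the chaperone of procollagen, was at 1.70, 7.37, 30.6 and 0.13 TPM in ENT1KO replicates 11, 12, 14 and 15, against 205, 359 and 170 TPM in WT replicates 1, 2 and 3 (log2 difference -5.45, limma adjusted p = 0.00442). Pcolce, an enhancer of the proteinase that removes the procollagen C end, was at 1.98, 6.74, 30.2 and 0.15 TPM in ENT1KO against 147, 216 and 114 TPM in WT (log2 difference -4.85, limma adjusted p = 0.00608). Bmp1, that proteinase, averaged 1.89 ± 2.12 TPM in ENT1KO and 28.9 ± 6.80 TPM in WT (log2 difference -3.63). The lysyl oxidases Lox, Loxl1 and Loxl2, which cross-link collagen and elastin, had log2 differences of -3.14, -4.06 and -3.12, and Htra1, a secreted serine proteinase, had -5.21. Plod2, the lysyl hydroxylase of collagen telopeptides and a hypoxia-responsive gene, was at 15.2, 15.8, 15.4 and 5.34 TPM in ENT1KO against 46.4, 48.1 and 22.5 TPM in WT (log2 difference -1.55, SE 0.41, limma adjusted p = 0.0159). Its call was lost without WT replicate 1 or WT replicate 2 (log2 difference -1.39 and -1.36, limma adjusted p = 0.0524 and 0.0746). Unlike the collagens, Plod2 was no higher in ENT1KO replicate 14 than in replicate 12.

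**Figure D3:**
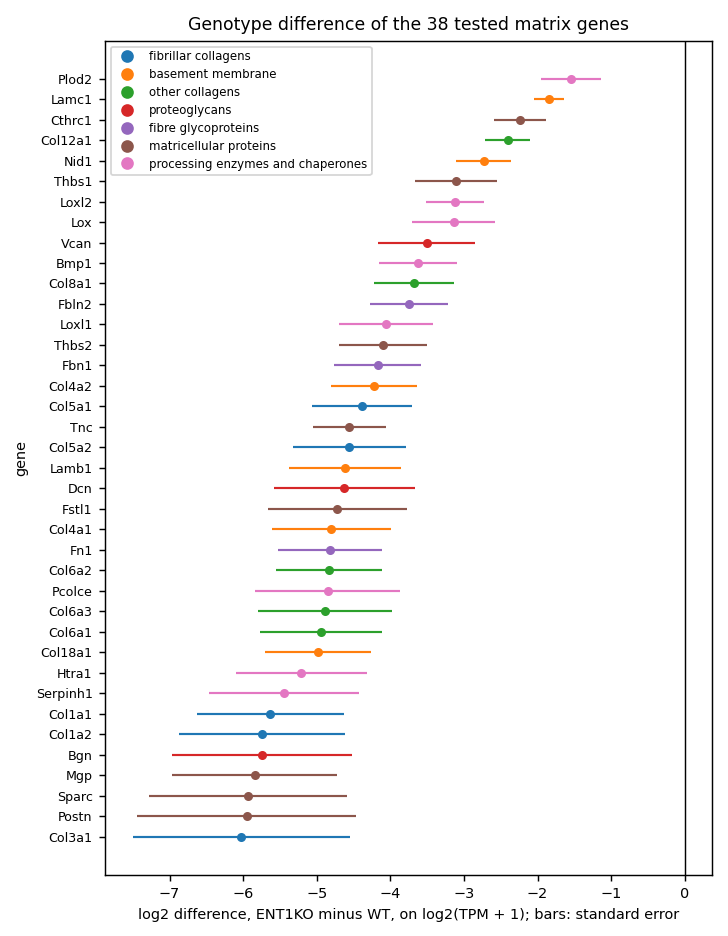
Log2 difference (ENT1KO minus WT, from log2(TPM + 1) values) of the 38 tested genes with its standard error from limma-trend, coloured by role. Plod2 and Lamc1 lie nearest to 0, at -1.55 and -1.84, and Col3a1 lies farthest, at -6.03. Differences of low genes are understated on this scale. The ratio of the WT mean to the ENT1KO mean is another measure, in which ENT1KO replicate 14 weighs most. This ratio was 18.9 for Col3a1 and 33.05 for Tnc, which lies nearer to 0 in the figure.

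Across the ENT1KO libraries nearly all genes moved in the same order. Replicate 15 was the lowest ENT1KO library, alone or tied, for all 39 genes and replicate 14 the highest for 37, the exceptions being Lamc1 and Plod2. The full order of 15, 11, 12 and 14 held for 35, the exceptions being Lamc1, Plod2, Thbs1 and Lum. This order was not particular to the matrix genes. The summed macrophage list, endothelial list and fibroblast list without S100a4 followed it too. The summed CD8 T cell, pericyte and epithelial lists did not. As a percentage of each gene's WT mean, the median of the 38 tested genes was 1.11% in replicate 11, 3.95% in replicate 12, 14.6% in replicate 14 and 0.0274% in replicate 15, against 99.1%, 132% and 69.4% in WT replicates 1, 2 and 3. Within replicate 14 the middle of the distribution was narrow, with quartiles of 12.7% and 18.1%. Tnc (6.62%) was the lowest there and Plod2 (39.4%) the highest. In replicate 15 the authors' deposited table listed 12 of the 39 genes at 0 normalized counts and 32 below 10, so its values near 0 rest on few reads, among them 5.89 normalized counts for Col3a1.

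Lamc1, Plod2, Thbs1 and Fn1, chosen after their values were seen, were the only members at 1 TPM or more in all 7 libraries. Plod2 was at 39.1%, 40.6%, 39.4% and 13.7% of its WT mean in ENT1KO replicates 11, 12, 14 and 15, and Lamc1 was at 26.0%, 33.0%, 26.6% and 21.0%. Thbs1 was at 16.9%, 9.67%, 20.9% and 3.32%. Fn1 lay near the other members in replicates 12 and 14 (3.22% and 11.9%) and above their median in replicates 11 and 15 (2.81% and 0.92%). These 4 genes held 52.9%, 25.5%, 11.8% and 92.9% of the summed matrix TPM in ENT1KO replicates 11, 12, 14 and 15, against 10.6%, 11.2% and 10.9% in WT replicates 1, 2 and 3. The other 35 genes summed to 67.2, 215, 999.5 and 2.40 TPM in ENT1KO, in the same order, against 6905, 8787 and 4652 TPM in WT. Among these 35, Nid1 kept more of its WT mean than Fn1 did in all 4 ENT1KO libraries (4.98%, 9.89%, 17.5% and 1.77%). Which cells gave the Lamc1, Plod2, Thbs1 and Fn1 reads was not tested.

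**Figure D4:**
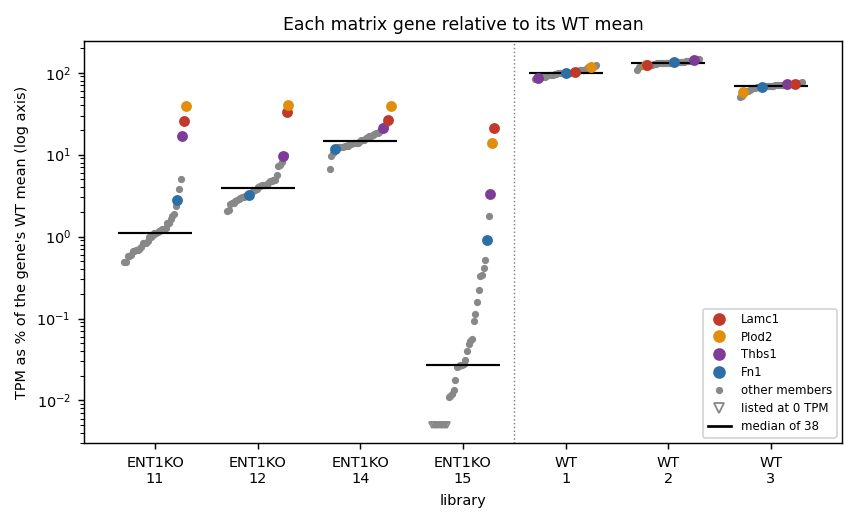
TPM of the 38 tested genes in each library as a percentage of the gene's WT mean (log axis), with the 4 ENT1KO libraries left of the dotted line. Black lines are medians (1.11%, 3.95%, 14.6% and 0.0274% in ENT1KO replicates 11, 12, 14 and 15), open triangles are genes listed at 0, and Plod2 and Lamc1 stay between 13.7% and 40.6% in ENT1KO.

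The make-up of the matrix RNA in ENT1KO replicate 14 was the nearest to that in WT libraries for fibrillar collagens, basement membrane genes and proteoglycans. Fibrillar collagens made up 12.3%, 17.8%, 28.5% and 1.91% of the summed matrix TPM in ENT1KO replicates 11, 12, 14 and 15, against 25.9%, 27.1% and 27.2% in WT replicates 1, 2 and 3. Basement membrane genes made up 16.2%, 13.1%, 5.22% and 49.0% in ENT1KO, through Lamc1, against 4.99%, 5.13% and 5.07% in WT. Matricellular genes held 35.9%, 35.7%, 36.3% and 15.3% in ENT1KO against 39.9%, 35.8% and 36.6% in WT, and proteoglycans held 6.13%, 8.04%, 9.15% and 0.529% in ENT1KO against 8.60%, 8.92% and 8.92% in WT. Postn, Col3a1 and Sparc were the 3 most abundant genes in WT replicates 1, 2 and 3 and in ENT1KO replicates 12 and 14. Thbs1, Lamc1 and Fn1 led in ENT1KO replicate 11, and Lamc1, Plod2 and Fn1 in ENT1KO replicate 15.

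**Figure D5:**
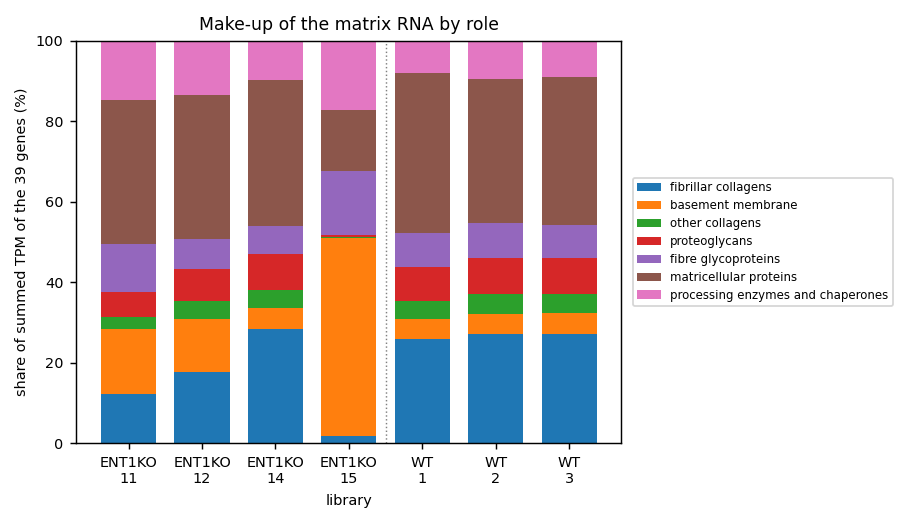
Share of the summed TPM of the 39 genes held by each role group in the 4 ENT1KO libraries, left of the dotted line, and the 3 WT libraries. In the 3 WT bars and in ENT1KO replicate 14, fibrillar collagens hold between 25.9% and 28.5%, and basement membrane genes take 49.0% in ENT1KO replicate 15.

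Ratios between chains of collagens or laminins were taken where the denominator reached 1 TPM. The Col1a2 to Col1a1 ratio of TPM was 2.75, 2.33 and 1.91 in ENT1KO replicates 11, 12 and 14, against 1.99, 1.81 and 1.83 in WT replicates 1, 2 and 3. Collagen I is a trimer with more Col1a1 than Col1a2 chains, and the ratio of RNA levels went the other way in all 6 libraries. The Col3a1 to Col1a1 ratio was 8.49, 6.84 and 7.77 in those ENT1KO libraries, against 6.06, 5.15 and 5.18 in WT, so the ENT1KO values lay above the WT values. Col4a1 to Col4a2 was 2.29 and 2.09 in ENT1KO replicates 12 and 14, against 1.85, 2.11 and 2.17 in WT, with overlap. Lamc1 to Lamb1 was 8.16 and 2.05 in ENT1KO replicates 12 and 14, against 1.08, 0.94 and 1.18 in WT. These ratios rest on a small number of libraries and were not tested.

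Other genes of the matrix pathway, taken from lists outside the 39, were mostly lower in ENT1KO too. Of 31 further collagen chains 12 were tested, and 10 were called lower and none higher. All 10 reached 1 TPM in fewer than 3 ENT1KO libraries, so they passed the filter only with the help of WT values. The filter thus favours chains that are lower in ENT1KO, and the count is a description. Col16a1, Col5a3 and Col7a1 were the most abundant of them, with log2 differences of -4.04, -3.62 and -2.73 and WT means of 37.8 ± 14.3, 21.8 ± 5.71 and 10.5 ± 3.44 TPM. The 2 without a call, Col11a2 and Col23a1, were at log2 differences of 0.61 and 0.38 (limma adjusted p = 0.0503 and 0.327). Col11a2 was called higher with quantile normalization (log2 difference 1.09, limma adjusted p = 0.00276) and without WT replicate 1 (0.0487), and Col23a1 on normalized counts (log2 difference 0.81, limma adjusted p = 0.0189). Among 32 tested matrix glycoproteins and proteoglycans, 31 were lower and 1, Lamb3, higher, where 23.1% of all genes tested were called lower and 27.5% higher. Of the 31, 20 reached 1 TPM in fewer than 3 ENT1KO libraries, and Mfap5 lost its call with quantile normalization and in 5 of 7 cases where a library was left out (limma adjusted p = 0.0528 to 0.0927). Spp1 (osteopontin, also made by macrophages), Ccn1 and Tgfbi led this list, at 71.0 ± 49.2, 21.7 ± 26.7 and 33.9 ± 20.3 TPM in ENT1KO and 562 ± 193, 432 ± 236 and 278 ± 69.7 TPM in WT. Lamb3, a laminin beta chain of epithelial basement membranes, was at 39.9, 47.7, 43.0 and 35.6 TPM in ENT1KO replicates 11, 12, 14 and 15, against 22.6, 13.3 and 29.5 TPM in WT replicates 1, 2 and 3 (log2 difference 0.96, limma adjusted p = 0.0124). Each ENT1KO library lay above each WT library, as for 30.3% of all genes tested.

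Further genes of collagen processing had a median log2 difference of -2.06. Of 21 tested, 20 were called lower, against 23.1% of all genes tested, and 8 of those 20 reached 1 TPM in fewer than 3 ENT1KO libraries. Adamts14, a procollagen N-proteinase, lost its call with quantile normalization and without WT replicate 2 (limma adjusted p = 0.061 and 0.067). Mia3, a cargo receptor for procollagen export, was called higher, as were 27.5% of all genes tested (40.2 ± 2.26 TPM in ENT1KO and 31.1 ± 3.09 TPM in WT). Mia3 lost its call on normalized counts (log2 difference 0.19, limma adjusted p = 0.0716), with upper quartile scaling (0.0543) and without ENT1KO replicate 11 or WT replicate 2 (0.0531 and 0.0586). Ppib, P4hb and P4ha1, a cyclophilin and the subunits of prolyl 4-hydroxylase, were the most abundant, with log2 differences of -0.27, -1.47 and -1.66. Ppib was called at an adjusted p of 0.0441 in limma and kept its call without WT replicate 1 (0.0474) but in no other case where a single library was left out (0.0541 to 0.121). Among 16 tested collagen and matrix receptors 10 were called lower, against 23.1% of all genes tested, 1 was called higher and 5 had no call. Itgb1, Cd44 and Itgav, the most abundant, had no call (log2 differences of -0.13, -0.25 and -0.44; limma adjusted p = 0.437, 0.182 and 0.204), although Cd44 passed on quantile-normalized values and on normalized counts, at -0.39 and -0.44. Itga2 and Itgb3 also had no call, but were called higher with quantile normalization (log2 differences of 0.60 and 0.52, limma adjusted p = 0.0197 and 0.0479), and Itgb3 also without ENT1KO replicate 15 (0.044). Itga1, the collagen-binding integrin of resident T cells, was the higher gene, at 37.8, 53.7, 26.2 and 43.3 TPM in ENT1KO against 19.1, 11.7 and 24.0 TPM in WT (log2 difference 1.11, limma adjusted p = 0.0142). Ddr2 and Mrc2, collagen receptors of mesenchymal cells, were lower by 3.68 and 3.50 on the log2 scale, with ENT1KO means of 1.74 ± 2.25 and 1.72 ± 2.21 TPM. Of the 10 receptors called lower, Ddr2 and Mrc2 alone reached 1 TPM in fewer than 3 ENT1KO libraries.

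Among the marker lists, the most abundant fibroblast and mesenchymal genes after S100a4 were Crabp1 and Tm4sf1. Crabp1 was at 9.94, 45.2, 139 and 0.37 TPM in ENT1KO replicates 11, 12, 14 and 15, against 633, 1099 and 578 TPM in WT replicates 1, 2 and 3. Tm4sf1 was at 4.95, 25.1, 55.3 and 0 TPM in ENT1KO against 324, 517 and 237 TPM in WT. Both had the order of the collagens over all 7 libraries. Lyz2, C1qa and C1qb, the most abundant macrophage genes, stood in ENT1KO replicate 15 at 32.0, 8.36 and 7.17 TPM, where most collagens were near 0. Eng, Egfl7 and Cdh5 led the endothelial list, with log2 differences of -1.89, -1.78 and -2.03. In the pericyte list, which summed to between 5.76 and 18.0 TPM in ENT1KO and between 19.4 and 29.9 TPM in WT, Mcam and Cspg4 were lower and Kcnj8 higher (log2 difference 1.53, limma adjusted p = 0.0133, and 0.0549 without WT replicate 2). Of the 7 pericyte genes 3 were tested, and Mcam and Cspg4 reached 1 TPM in fewer than 3 ENT1KO libraries. In the epithelial list, which summed to between 34.7 and 79.3 TPM in ENT1KO and between 90.0 and 121 TPM in WT, Krt18 and Krt8 were lower, Epcam had no call except with quantile normalization (log2 difference 0.83, limma adjusted p = 0.0393), and Cdh1 was called higher at the margin (limma adjusted p = 0.0477, and 0.0547 to 0.185 where the call was lost). Krt18 and Krt8 also reached 1 TPM in fewer than 3 ENT1KO libraries. The filter favours such genes, so the pericyte and epithelial calls are a description. Of all genes tested, 23.1% were called lower and 27.5% higher. The most abundant CD8 T cell genes, Trac, Trbc2 and Cd3g, were higher by log2 differences of 1.17, 1.23 and 1.12. Trbc2 lost its call on normalized counts (log2 difference 0.78, limma adjusted p = 0.055), and Trbc1 without WT replicate 1 (0.052).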

How the data were processed

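RNA was made from tumour CD8 T cells by poly(A) selection, per the labels' protocols. Per the submitters' processing notes the tools included DESeq2 1.30.1, RSEM, STAR 2.7.1a and Trimmomatic (0.35 and 0.38), with build GRCm39 and no stated order or annotation release. The authors deposited TPM per gene and, in a separate table, normalized counts (signal per gene) with a log2 fold change, its standard error, a test score and p-values from their own comparison. Raw counts were not used here, so no count test was run, and the authors' comparison stands as the count-based alternative. Summed normalized counts lay between 18306306 and 20167206 per library, which limits genes with few reads.

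Of 55357 genes, 13798 with at least 1 TPM in 3 of 7 samples were tested with limma 3.58.1 (trend and robust options on) in R 4.3.3 on log2(TPM + 1), so differences of low genes are understated. P-values were adjusted by Benjamini-Hochberg over all genes tested, with a threshold of 0.05. The procedure was also run on simulated data in which genes were independent and few were changed. That setting differs from these data, so the run does not vouch for the calls here. Single genes also had an exact two-sided permutation test over samples. The 39 genes and the lists set beside them were chosen with earlier results of these data known. Described sample by sample were the most abundant genes of each role and those used in ratios, and of each other list the 3 most abundant tested genes and any called against its list's direction. RefSeq promoter windows (GRCm38.p6) were used for sequence only. Alternatives were other pseudocounts, filters, scalings, array weights and leaving out each replicate.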

Additional observations from a re-analysis of the deposited data

Results flagged for a closer look

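In ENT1KO, 9 values had 1 library standing apart from the other 3, by a gap to the nearest library, divided by the whole range, above Dixon's critical value. Replicate 14 was high for Col1a1 (0.837), Col3a1 (0.857), Col6a2 (0.832), Col7a1 (0.858), the summed fibrillar collagens (0.843) and the summed endothelial markers (0.862). Replicate 15 was low for Plod2 (0.945) and high for Cdh1 (0.919), and replicate 12 was high for Cd3g (0.943). Among the 38 tested matrix genes 4 were marked in this way, and chance marks about 1 in 20 groups. These genes share libraries and are not independent. Groups of 3, such as WT, were not examined.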

How the results depend on the processing

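No paired analysis was possible because the ENT1KO and WT samples share no replicate number. All matrix genes tested stayed lower in ENT1KO under every alternative run. Between 34 and 38 were called with 1 replicate left out, 39 with any value above 0 or in the authors' deposited comparison, and 36 with at least 5 TPM in 3 samples. Without WT replicate 2 the calls of Col3a1, Postn, Sparc and Plod2 were lost, and without WT replicate 1 that of Plod2. The cause was not tested. Over all genes 6982 were called, 4840 to 6853 with 1 replicate left out and 5645 to 7990 under the other alternatives. Of the calls 54.4% were higher in ENT1KO, against 42.9% on normalized counts, 43.8% with upper quartile scaling and 39% in the authors' deposited comparison. The log2 difference of the summed matrix TPM was -5.21, and -6.04 to -4.36 with 1 replicate left out. In ENT1KO replicate 15, 32 of the 39 genes had under 10 normalized counts, so their levels there rest on few reads.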
